A study of Mus musculus with 8 samples.

Results

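The nuclear genes of oxidative phosphorylation were described in E14TG2a, a mouse embryonic stem cell line of strain 129/Ola. Members were chosen by gene symbol: those starting with Ndufa, Ndufb, Ndufc, Ndufs, Ndufv, Uqcr, Cox4 to Cox8 or Atp5, with Sdha, Sdhb, Sdhc, Sdhd and Cyc1, and without pseudogenes and Ndufaf assembly factors. This gave 85 of the 17725 identifiers that had a usable value. Of these, 38 belonged to complex I, 4 to complex II, 9 to complex III, 17 to complex IV and 17 to complex V. Another 5 symbols that meet the rule, Cox4i1 among them, were not analysed here. RNA of wild-type cells (WT) was compared with that of 3 knockouts named E1-KO, E2-KO and E3-KO, in each of which an enhancer had been knocked out with CRISPR/Cas9. Cells of all 4 groups grew on gelatin without feeder cells, in serum with leukaemia inhibitory factor and the inhibitors CHIR99021, of the kinase GSK3, and PD0325901, of the kinase MEK. Each group held 2 samples, called biological duplicates by the submitters. No label says whether the 2 samples of a knockout came from separate clones or cultures, so p-values measure only the spread between these samples. Nor do the labels place the enhancers, and the stated interest was Sox2, a transcription factor gene of pluripotent cells.

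In oxidative phosphorylation, complexes I and II take electrons from NADH and succinate and pass them through ubiquinone to complex III, and cytochrome c carries them on to complex IV, which reduces oxygen. Complexes I, III and IV pump protons across the inner mitochondrial membrane, and complex V, the ATP synthase, uses their return to make ATP. Complexes I, III, IV and V combine subunits encoded in the nucleus with subunits encoded in the mitochondrial genome, whereas all subunits of complex II are nuclear. Embryonic stem cells draw much of their ATP from glycolysis, but keep a working respiratory chain. Several subunits of complex IV come in a common form and a form typical of muscle, testis or lung, made from separate genes.

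Deposited values were taken as FPKM, fragments per kilobase of transcript scaled to library size, a level that can be compared between genes. The members were abundant: 34 had a mean of at least 100 FPKM, 44 lay between 10 and 100 and 7 were under 10, and the median of their means was 69.6 FPKM, against 12.8 over all tested genes. Highest was Atp5b, the catalytic beta subunit of ATP synthase, at 1099.8 and 1063 FPKM (WT), 1191 and 1174 (E1-KO), 1259 and 1358 (E2-KO) and 1466 and 1277 (E3-KO). Together the members held 2.08% to 2.29% of the summed FPKM of a sample. Absolute depth is unknown. Relative depth was estimated from the most frequent ratio between the low values of a sample and those of WT replicate 1. The estimates ran from 0.786 to 1.01 times that of WT replicate 1, with both extremes in E3-KO. They are rough, as only 3.5% to 4.7% of the ratios of a knockout sample stood at the most frequent value. Sox2 was at 131 and 136 FPKM (WT), 58.0 and 60.3 (E1-KO), 114 and 97.5 (E2-KO) and 97.7 and 91.0 (E3-KO), lower in all 6 knockout samples than in both WT samples. Of 8 embryonic stem cell markers, Sox2 among them, 5 were lower in E1-KO, 2 higher and 2 lower in E2-KO and 4 lower in E3-KO, with Sox2 and Dppa5a lower in each. The median log2 fold change of these 8 was -0.42 (E1-KO), -0.25 (E2-KO) and -0.39 (E3-KO). By the test described below, 23% (E1-KO), 22% (E2-KO) and 30.8% (E3-KO) of all tested genes were lower. The shares of all tested genes that were higher were 15%, 14.2% and 13.9%. Both shares stand beside every marker count here. Nanog was at 467 and 450.4 FPKM (WT), 508 and 522 (E1-KO), 524 and 618 (E2-KO) and 435 and 373 (E3-KO), with no call. Of the markers of other cell types, 6 of 7 for fibroblasts and 5 of 6 for muscle stayed under 1 FPKM throughout. The tested fibroblast marker, Thy1, was low, at 0.840 and 0.695 FPKM (WT), 2.54 and 2.69 (E1-KO), 1.23 and 1.82 (E2-KO) and 2.54 and 2.85 (E3-KO), and called higher in all 3 knockouts (log2 fold changes of 1.03, 0.51 and 1.06). Of 3 tested neural markers, 2 were higher in E1-KO, 1 higher and 1 lower in E2-KO and 1 higher in E3-KO. The summed level of 5 primitive endoderm markers was 89.5 and 95.8 FPKM for WT, 134 to 153 over the samples of E1-KO and E2-KO, and 236 and 202 for E3-KO, and 3 of these markers were under 1 FPKM in all samples. Sparc alone gave nearly all of this sum, at 87.9 and 94.2 FPKM (WT), 152 and 146 (E1-KO), 133 and 149 (E2-KO) and 231 and 199 (E3-KO). Of the 2 tested markers of this list, the other went down in E1-KO (-0.64) and E2-KO (-0.49), with no call. In E3-KO it was called higher (0.785). The part of these marker differences in the results below was not tested. In bulk RNA, fewer cells of a type and less RNA per cell cannot be told apart.

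Against WT, 29 of the 81 tested members differed in E1-KO (8 higher, 21 lower), 24 in E2-KO (14 higher, 10 lower) and 28 in E3-KO (5 higher, 23 lower). Tests covered genes whose mean reached 1 FPKM, 11269 in all, by limma-trend, two-sided, with a threshold of 0.05 on the p adjusted over these genes by Benjamini-Hochberg. Members that passed amounted to 35.8%, 29.6% and 34.6%, and over all tested genes the shares were 38% in E1-KO (15% higher, 23% lower), 36.1% in E2-KO (14.2% higher, 22% lower) and 44.7% in E3-KO (13.9% higher, 30.8% lower). The members' shares lay near or below these shares of all genes and are no result about the members. Their median log2 fold change was -0.12 (E1-KO), 0.04 (E2-KO) and -0.11 (E3-KO), beside -0.06, -0.08 and -0.15 over all tested genes; fold changes here are differences on the log2(FPKM + 1) scale, which understates changes of low genes. The split into higher and lower members depended on the scaling, most of all in E2-KO, where 10 rose and 17 fell with quantile normalization, against 20 and 7 with median-ratio scaling. For E3-KO, median-ratio scaling gave 14 higher and 15 lower members. It moved the median of all genes from -0.15 to -0.02. Without WT replicate 2 the counts were 11, 5 and 13, and without WT replicate 1 they were 20, 8 and 17. The E1-KO count was 13 without E1-KO replicate 1 and 17 without E1-KO replicate 2. Without E2-KO replicate 1, the direction in E2-KO turned to 5 higher and 12 lower, with a median of -0.06. Without E3-KO replicate 2, E3-KO had 10 higher and 15 lower. The 3 comparisons share the WT samples. Another 4 members were too low to test: Cox4i2, Cox6a2, Cox8b and Cox8c.

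**Figure D1:**
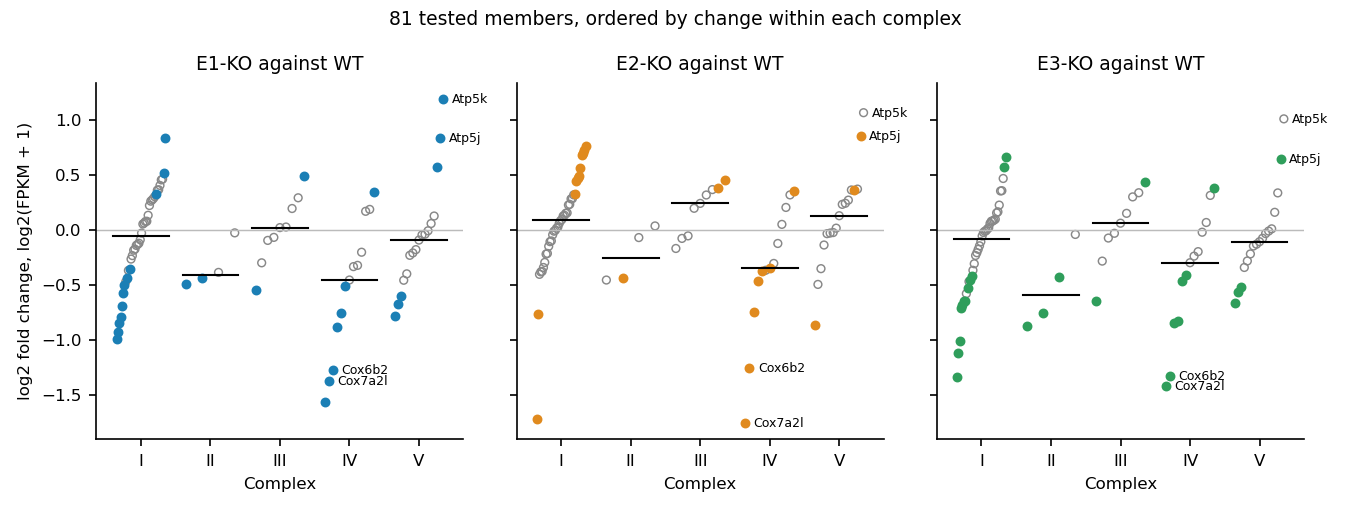
Log2 fold change against WT on the log2(FPKM + 1) scale (y axis) of the 81 tested members, ordered within each complex (x axis); filled points passed an adjusted p of 0.05, open points did not, and the bar is the median. Cox7a2l and Cox6b2 lie lowest or nearly lowest in complex IV in each knockout, and Atp5j is filled in all 3 while Atp5k is filled in E1-KO alone.

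Summed over a complex, the level moved in different directions (sums carry no test). Complex II summed to 222 and 234 FPKM in WT, 181 and 184 (E1-KO), 214 and 177 (E2-KO) and 171 and 150.0 (E3-KO), so that all knockout samples lay below both WT samples. For complex IV the sums were 2524 and 2512 FPKM in WT, 2162 and 2196 (E1-KO), 2518 and 2262 (E2-KO) and 2414 and 2047 (E3-KO). All but E2-KO replicate 1 lay below both WT samples. The sum of complex III went the other way, with 1340 and 1337 FPKM in WT against 1412 to 1642 in the 6 knockout samples. Its ratio to WT was 1.09 (E1-KO), 1.19 (E2-KO) and 1.11 (E3-KO). The mean sums were 1339 FPKM (WT), 1464 (E1-KO), 1588 (E2-KO) and 1492 (E3-KO). Much of this rise lay in Uqcrb, its most abundant gene, with means of 331 (WT), 465 (E1-KO), 434 (E2-KO) and 449 (E3-KO). Of the 9 genes, 5 had a log2 fold change above 0 and 4 below it for both E1-KO and E3-KO. For E2-KO these counts were 6 and 3. Complex I was at 2891 and 2900 FPKM in WT and between 2311 and 3332 in the knockouts, with E2-KO replicate 1 above and E3-KO replicate 2 furthest below. Complex V, with 3416 and 3466 FPKM in WT, ranged from 3409 to 3977. The 2 samples of E2-KO and of E3-KO stood apart by more than those of WT in each complex.

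**Figure D2:**
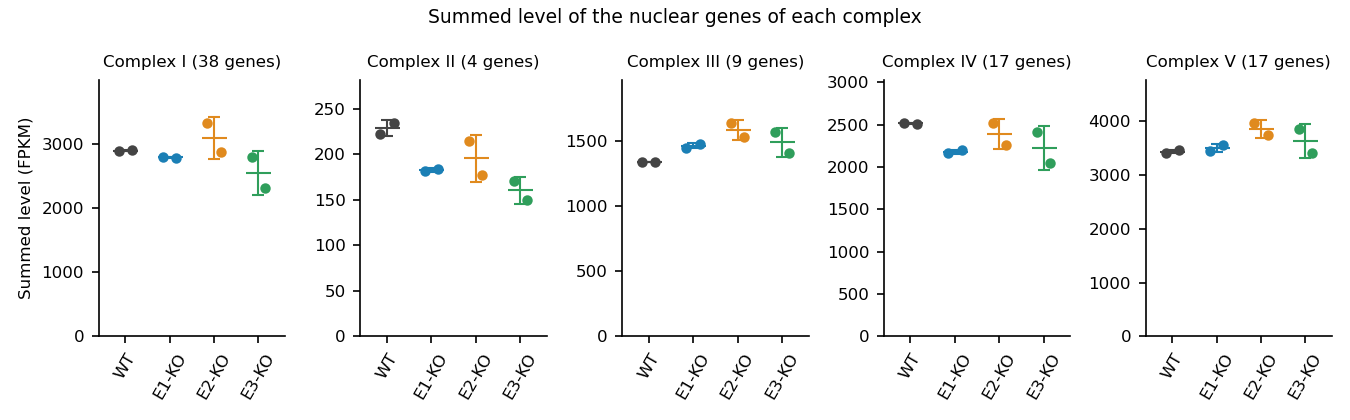
Summed FPKM of the members of each complex (y axis, from 0) in each sample (points) by group (x axis), with the mean and SD of 2 samples. Complex II lies below WT in all 6 knockout samples and complex III above it, while replicate 1 of E2-KO and of E3-KO lies above replicate 2 in all 5 panels.

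Complex I, the NADH dehydrogenase, has 7 nuclear core subunits that bind NADH and carry the iron-sulfur clusters, and a shell of supernumerary subunits. Among the core subunits, Ndufs8 was called higher in E1-KO and E2-KO and Ndufs7 in E2-KO, while Ndufs3 was lower in E1-KO and E3-KO. Ndufs1, Ndufv1 and Ndufv2 passed the test in no knockout. Ndufs3 was at 29.9 and 30.5 FPKM (WT), 21.1 and 21.0 (E1-KO), 31.2 and 30.0 (E2-KO) and 21.9 and 22.9 (E3-KO). Its E2-KO samples thus lay within the WT range or just above it, and those of E1-KO and E3-KO below. Of the 31 supernumerary members, 2 rose and 7 fell (E1-KO), 7 rose and 2 fell (E2-KO), and 2 rose and 8 fell (E3-KO). Of all 38 genes 31.6% (E1-KO), 28.9% (E2-KO) and 31.6% (E3-KO) were called, below the 38%, 36.1% and 44.7% of all tested genes. Over the 38 the median log2 fold change was -0.06, 0.09 and -0.08. Among those lower in E3-KO, Ndufa4, Ndufa9 and Ndufb2 lie on chromosome 6, where 347 of 536 tested genes were lower. Over the 34 genes of the complex off chromosome 6 the medians were -0.07, 0.08 and -0.04. Of these 34, 2 were higher and 7 lower in E3-KO (26.5%). Ndufa4 and its paralog Ndufa4l2 are counted here by symbol, although Ndufa4 is known as a subunit of complex IV.

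Ndufa7 (ENSMUSG00000041881, chr17:33824572-33838317, plus strand in GENCODE M21 on GRCm38, as all positions here; the submitters' notes name mm9), a supernumerary subunit, fell in all 3 knockouts. It was at 294 and 281 FPKM (WT), 148 and 141 (E1-KO), 167 and 171 (E2-KO) and 159 and 109 (E3-KO), with log2 fold changes of -0.99 (E1-KO, standard error 0.16, adjusted p = 0.00184), -0.76 (E2-KO, adjusted p = 0.00627) and -1.12 (E3-KO, adjusted p = 0.000775). All 6 knockout samples lay below both WT samples. These calls held under every alternative. Ndufs4, which is needed to finish the assembly of the complex, was at 48.2 and 56.5 FPKM (WT), 25.9 and 28.1 (E1-KO), 50.4 and 40.1 (E2-KO) and 41.8 and 23.8 (E3-KO), and its log2 fold change was -0.93 (standard error 0.23, adjusted p = 0.0122) for E1-KO. The call was lost without E1-KO replicate 1 or WT replicate 2 (adjusted p up to 0.086). Ndufb6, a subunit of the membrane arm, was at 39.6 and 36.8 FPKM (WT), 20.6 and 20.9 (E1-KO), 32.3 and 25.4 (E2-KO) and 32.6 and 21.0 (E3-KO), a log2 fold change of -0.85 (standard error 0.19, adjusted p = 0.00821) in E1-KO that was lost without E1-KO replicate 1 or WT replicate 1 (adjusted p up to 0.0535). Ndufs4 and Ndufb6 were called lower in E3-KO too, where in both genes replicate 2 alone was about as low as the E1-KO samples. Ndufb3, another membrane arm subunit, rose instead. It was at 23.1 and 21.5 FPKM (WT), 40.5 and 40.6 (E1-KO), 43.3 and 30.4 (E2-KO) and 35.2 and 36.6 (E3-KO). Every knockout sample was above both WT samples, with log2 fold changes of 0.84 (E1-KO, standard error 0.15, adjusted p = 0.00286), 0.68 (E2-KO, adjusted p = 0.00773) and 0.67 (E3-KO, adjusted p = 0.00648). Without WT replicate 2 the call missed the threshold in E2-KO and E3-KO (adjusted p up to 0.0608). The 9 members called higher in E2-KO were Ndufa5, Ndufa11, Ndufa13, Ndufb3, Ndufb4, Ndufb7, Ndufb10, Ndufs7 and Ndufs8. In all 9, E2-KO replicate 1 was higher than replicate 2, and without replicate 1 the complex had 3 members called higher and 4 lower, with a median log2 fold change of -0.0023. It had 2 higher and 1 lower without WT replicate 1, and 1 of each without WT replicate 2.

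Ndufa4l2 is a paralog of Ndufa4 known to be induced by low oxygen. It was at 10.3 and 10.2 FPKM (WT), 11.3 and 6.91 (E1-KO), 1.63 and 3.44 (E2-KO) and 1.54 and 6.78 (E3-KO). Its log2 fold change was -1.71 (standard error 0.46, adjusted p = 0.0193) in E2-KO and -1.33 (adjusted p = 0.0415) in E3-KO, but the 2 samples of E3-KO lay far apart, and both calls were lost when single libraries were left out (E3-KO without replicate 1: -0.53, adjusted p = 0.247).

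Complex II, succinate dehydrogenase, oxidises succinate to fumarate and is shared with the citric acid cycle. Of its 4 genes, 2 were called lower (E1-KO), 1 (E2-KO) and 3 (E3-KO), and the median log2 fold change was -0.41, -0.25 and -0.59. Over all tested genes 23%, 22% and 30.8% were lower in these knockouts, beside which 4 genes make a coarse share. Sdha, the flavoprotein subunit with the active site, was at 56.1 and 58.8 FPKM (WT), 56.4 and 56.4 (E1-KO), 66.6 and 52.2 (E2-KO) and 57.2 and 54.5 (E3-KO), with knockout samples on both sides of WT and no call. Sdhb, the iron-sulfur subunit, was at 68.4 and 74.1 FPKM (WT), 53.0 and 55.7 (E1-KO), 61.2 and 43.7 (E2-KO) and 44.7 and 33.2 (E3-KO), and its log2 fold change was -0.87 (standard error 0.17, adjusted p = 0.00407) in E3-KO. Every knockout sample of Sdhb lay below both WT samples. Sdhc, a membrane anchor, was at 50.3 and 56.0 FPKM (WT), 39.7 and 38.3 (E1-KO), 35.4 and 42.8 (E2-KO) and 31.6 and 30.5 (E3-KO), and fell in all 3, with log2 fold changes of -0.44 (E1-KO, standard error 0.11, adjusted p = 0.016), -0.44 (E2-KO, adjusted p = 0.0163) and -0.75 (E3-KO, adjusted p = 0.00107). Its call was lost without E1-KO replicate 1, E1-KO replicate 2 or WT replicate 2 (adjusted p up to 0.127) in E1-KO, and without E2-KO replicate 1 or WT replicate 2 (adjusted p up to 0.127) in E2-KO. Sdhd, the other membrane anchor, was at 47.3 and 45.7 FPKM (WT), 31.9 and 33.9 (E1-KO), 50.8 and 38.6 (E2-KO) and 37.0 and 31.8 (E3-KO), below both WT samples in all knockout samples but E2-KO replicate 1. Its log2 fold change was -0.49 (standard error 0.14, adjusted p = 0.0218) in E1-KO and -0.43 (adjusted p = 0.0315) in E3-KO, and leaving out single libraries ended both calls (adjusted p up to 0.121 and 0.155), as did median-ratio scaling and the correction for length and GC content in E3-KO.

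Complex III passes electrons from ubiquinol to cytochrome c. Of its 9 genes, 1 was called higher and 1 lower in E1-KO and in E3-KO, and 2 were higher in E2-KO, with medians of 0.02, 0.24 and 0.06 in the order of the knockouts. That is 22.2% in each knockout, below the 38%, 36.1% and 44.7% of all tested genes. Uqcrb, which binds ubiquinone, was at 339.6 and 323 FPKM (WT), 460.0 and 471 (E1-KO), 448 and 419.5 (E2-KO) and 476 and 422 (E3-KO). All 6 knockout samples were above WT, and the log2 fold changes were 0.49 (E1-KO, standard error 0.11, adjusted p = 0.00845), 0.39 (E2-KO, adjusted p = 0.0235) and 0.44 (E3-KO, adjusted p = 0.0113). Each of these calls was lost without WT replicate 2, among other libraries (adjusted p up to 0.159), and that in E2-KO also under quantile normalization and the correction for length and GC content, with a change down to 0.075 (adjusted p up to 0.569). An annotated pseudogene sequence like Uqcrb was found 3 times; how reads were assigned among such copies was not tested. Uqcr11, a small subunit, was at 162 and 146 FPKM (WT), 187 and 190.4 (E1-KO), 199 and 223 (E2-KO) and 208 and 174 (E3-KO), a change of 0.45 (standard error 0.12, adjusted p = 0.0173) in E2-KO that was lost without E2-KO replicate 2, WT replicate 1 or WT replicate 2 (adjusted p up to 0.133) and, with a change down to 0.18, under quantile normalization and the correction for length and GC content (adjusted p up to 0.217). Uqcrq, the ubiquinone-binding protein, moved down, at 182 and 187 FPKM (WT), 115 and 138 (E1-KO), 177 and 152 (E2-KO) and 133 and 104 (E3-KO), with log2 fold changes of -0.54 (standard error 0.14, adjusted p = 0.0168) in E1-KO and -0.64 (adjusted p = 0.0066) in E3-KO. The E1-KO call was lost without E1-KO replicate 1, WT replicate 1 or WT replicate 2 (adjusted p up to 0.134). Cyc1, the haem protein cytochrome c1, and the Rieske iron-sulfur protein Uqcrfs1 passed in no knockout, and neither did the core proteins Uqcrc1 and Uqcrc2.

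Complex IV is cytochrome c oxidase, whose small nuclear subunits surround a core encoded in mitochondria. In each knockout 7 of its 13 tested genes differed from WT, 1 higher and 6 lower (53.8%). Over all tested genes 38% (E1-KO), 36.1% (E2-KO) and 44.7% (E3-KO) were called, and 23%, 22% and 30.8% were lower. The median log2 fold change was -0.45 (E1-KO), -0.35 (E2-KO) and -0.30 (E3-KO), and it was below 0 under all 23 alternatives in each knockout. Many of these, such as another model, threshold or left-out library of another knockout, cannot change this median. Over the alternatives it ran from -0.555 to -0.302 (E1-KO), -0.609 to -0.185 (E2-KO) and -0.451 to -0.14 (E3-KO). The number called lower under them ran from 5 to 10 (E1-KO), 2 to 8 (E2-KO) and 4 to 7 (E3-KO). Cox7a2l (ENSMUSG00000024248, chr17:83501918-83517330, minus strand), a relative of Cox7a2 that joins complexes III and IV into supercomplexes, fell furthest in E2-KO and E3-KO, from 136 ± 11.8 FPKM for WT to 52.1 ± 3.17 (E1-KO), 39.7 ± 2.76 (E2-KO) and 50.5 ± 7.16 (E3-KO). These are means with the SD of 2 samples (n = 2). The single samples were 128 and 145 FPKM (WT), 54.3 and 49.9 (E1-KO), 41.7 and 37.8 (E2-KO) and 55.6 and 45.4 (E3-KO). All 6 knockout samples lay far below both WT samples. Log2 fold changes were -1.37 (E1-KO, standard error 0.12, adjusted p = 0.00017), -1.75 (E2-KO, adjusted p = 7.46e-05) and -1.42 (E3-KO, adjusted p = 9.26e-05), and all 3 calls held under every alternative, the least change being -1.27 in E3-KO.

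Cox6b2 (ENSMUSG00000051811, chr7:4751792-4753094, minus strand), the testis form of a subunit that links the dimer of complex IV, was at 90.4 and 86.2 FPKM (WT), 35.1 and 37.1 (E1-KO), 36.3 and 36.4 (E2-KO) and 38.9 and 30.8 (E3-KO). All knockout samples again lay below WT without overlap. Its log2 fold changes of -1.27 (E1-KO, standard error 0.12, adjusted p = 0.000184), -1.26 (E2-KO, adjusted p = 0.000225) and -1.33 (E3-KO, adjusted p = 0.000102) also held under every alternative. The common form Cox6b1 was at 317 and 330.4 FPKM (WT), 252 and 263 (E1-KO), 378 and 298 (E2-KO) and 306 and 261 (E3-KO) and passed in no knockout, with E1-KO and E3-KO below WT and E2-KO on both sides of it. Cox6b2 therefore made up 22.2% and 20.7% of the summed FPKM of the pair in WT, 12.2% and 12.4% (E1-KO), 8.77% and 10.9% (E2-KO) and 11.3% and 10.6% (E3-KO). Every knockout sample had a lower share than both WT samples.

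Cox7b, a common small subunit on the X chromosome, was at 145 and 127 FPKM (WT), 76.6 and 83.4 (E1-KO), 114 and 84.4 (E2-KO) and 82.1 and 69.2 (E3-KO), with log2 fold changes of -0.76 (E1-KO, standard error 0.15, adjusted p = 0.00536), -0.46 (E2-KO, adjusted p = 0.0413) and -0.84 (E3-KO, adjusted p = 0.00253). The E2-KO call was lost without E1-KO replicate 1, E1-KO replicate 2, E2-KO replicate 2, WT replicate 1 or WT replicate 2 (adjusted p up to 0.213) and under median-ratio scaling. Its testis form Cox7b2 was low, at 5.18 and 4.38 FPKM (WT), 0.650 and 1.32 (E1-KO), 2.48 and 2.40 (E2-KO) and 4.24 and 3.22 (E3-KO). Samples of E1-KO and E2-KO lay below WT, with changes of -1.56 (standard error 0.19, adjusted p = 0.000608) and -0.74 (adjusted p = 0.0168), whereas those of E3-KO lay just below WT (-0.30, adjusted p = 0.242). The E2-KO call was lost when any E2-KO or WT library was left out (adjusted p up to 0.107). Cox6a1, the common form of a regulatory subunit, was at 269 and 282 FPKM (WT), 197 and 190.3 (E1-KO), 228 and 205 (E2-KO) and 221 and 194 (E3-KO) and fell by less, with log2 fold changes of -0.51 (E1-KO, standard error 0.11, adjusted p = 0.00694), -0.35 (E2-KO, adjusted p = 0.0333) and -0.41 (E3-KO, adjusted p = 0.0143). Its calls in E2-KO and E3-KO were lost under median-ratio scaling, and all 3 were lost without WT replicate 2 (adjusted p up to 0.183 over the left-out libraries).

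Cox5a, a subunit on the matrix side, was at 147 and 149.9 FPKM (WT), 74.8 and 86.2 (E1-KO), 136 and 106 (E2-KO) and 126 and 91.4 (E3-KO), called lower in E1-KO and E3-KO. Cox7a2 was at 52.4 and 67.0 FPKM (WT), 43.6 and 42.5 (E1-KO), 53.3 and 39.4 (E2-KO) and 35.2 and 31.1 (E3-KO), and its log2 fold change was -0.82 (standard error 0.16, adjusted p = 0.00354) in E3-KO, a call that held under every alternative. The muscle form Cox7a1 was expressed in these stem cells at a like level, 37.4 and 42.5 FPKM (WT), 36.0 and 28.0 (E1-KO), 30.8 and 30.4 (E2-KO) and 38.3 and 40.5 (E3-KO), and its call in E2-KO (-0.37, adjusted p = 0.049) was lost under 15 of 22 alternatives. Cox6c, a common subunit, was the member of complex IV that was higher in all 3, at 288 and 282 FPKM (WT), 358 and 367 (E1-KO), 394 and 338 (E2-KO) and 392 and 355 (E3-KO). Its log2 fold changes were 0.35 (E1-KO, standard error 0.11, adjusted p = 0.0399), 0.36 (E2-KO, adjusted p = 0.0371) and 0.39 (E3-KO, adjusted p = 0.0223), all above WT in every sample, and each call was lost without either WT replicate (adjusted p up to 0.183). The calls in E1-KO and E2-KO were also lost under quantile normalization, with a change down to 0.11 in E2-KO (adjusted p = 0.36). The most abundant members, Cox7c and Cox8a, passed in no knockout. Cox6a2, Cox8b and Cox8c, forms of muscle or testis, stayed under 1 FPKM in all samples, and the lung form Cox4i2 was at 1.66 and 1.22 FPKM (WT), 1.68 and 0.854 (E1-KO), 0.991 and 0.557 (E2-KO) and 0.319 and 0.122 (E3-KO), untested.

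**Figure D3:**
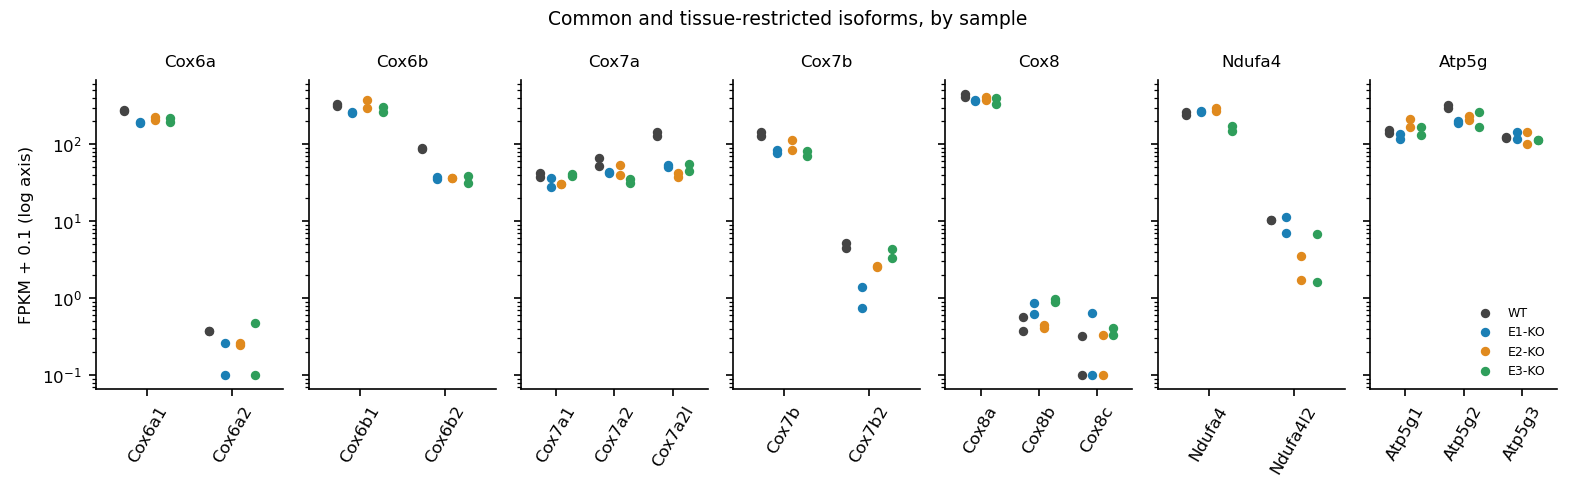
FPKM + 0.1 on a log axis (y axis) for isoforms of the same subunit (x axis), 1 point per sample coloured by group. Cox6b2, Cox7a2l and Cox7b lie lower in all knockout samples than in WT, Cox6b1 does not in E2-KO, and Cox6a2, Cox8b and Cox8c lie under 1 FPKM.

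In complex V, 6 of 17 genes were called in E1-KO (3 higher, 3 lower), 3 in E2-KO (2 higher, 1 lower) and 4 in E3-KO (1 higher, 3 lower). These shares of 35.3%, 17.6% and 23.5% lay below the 38%, 36.1% and 44.7% of all tested genes. Over the 17 genes the median log2 fold change was -0.09 (E1-KO), 0.13 (E2-KO) and -0.11 (E3-KO). Of the catalytic head and central stalk, Atp5a1, Atp5b, Atp5c1, Atp5d and Atp5e passed in no knockout. Atp5j (ENSMUSG00000022890, chr16:84827866-84835625, minus strand), a coupling factor in the peripheral stalk, was at 145 and 156 FPKM (WT), 296 and 246 (E1-KO), 281 and 265 (E2-KO) and 219.7 and 252 (E3-KO). All knockout samples exceeded both WT samples, the log2 fold changes were 0.84 (E1-KO, standard error 0.12, adjusted p = 0.00124), 0.86 (E2-KO, adjusted p = 0.00125) and 0.64 (E3-KO, adjusted p = 0.00319), and these calls held under every alternative. Its exons overlap by 12.7% with those of Gabpa on the other strand, a gene at 73.4 and 70.9 FPKM (WT), 136 and 124 (E1-KO), 100.3 and 78.3 (E2-KO) and 95.5 and 148 (E3-KO) that was itself called higher in E1-KO (0.84, adjusted p = 0.00926) and E3-KO (0.71, adjusted p = 0.0153). Whether counting used the strand is not given in the sources used here, and the part of Gabpa reads in the Atp5j values was not tested.

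Atp5h, another stalk subunit, was at 211 and 193 FPKM (WT), 284 and 319.7 (E1-KO), 276 and 248 (E2-KO) and 245 and 209.6 (E3-KO). It was called higher in E1-KO and E2-KO, the latter at 0.37 (standard error 0.12, adjusted p = 0.0415), a call kept under 11 of 23 alternatives. Atp5k, a small subunit of the dimer interface, was at 31.5 and 36.0 FPKM (WT), 73.3 and 83.3 (E1-KO), 121 and 42.3 (E2-KO) and 57.2 and 83.0 (E3-KO), higher in all knockout samples than in WT. Its 2 samples of E2-KO lay far apart, and the change passed only in E1-KO (1.19, standard error 0.39, adjusted p = 0.0383), where it was lost without either replicate of E1-KO or WT (adjusted p up to 0.15). Elsewhere its change was 1.07 (adjusted p = 0.0582) for E2-KO and 1.01 (adjusted p = 0.0599) for E3-KO. Atp5l, which helps ATP synthase dimers form, was at 169 and 186 FPKM (WT), 96.3 and 110.0 (E1-KO), 160.1 and 120.4 (E2-KO) and 140.5 and 109 (E3-KO), and its log2 fold change was -0.78 (standard error 0.16, adjusted p = 0.00648) in E1-KO, lost without E1-KO replicate 1 or WT replicate 2 (adjusted p up to 0.0577). Of the 3 genes for the c subunit of the rotor, whose mature proteins are identical, Atp5g2 was at 324 and 294 FPKM (WT), 188 and 200.4 (E1-KO), 206 and 233 (E2-KO) and 262 and 165 (E3-KO), below WT in every knockout sample. It was called in E1-KO (-0.67, standard error 0.19, adjusted p = 0.0225) and E3-KO (-0.57, adjusted p = 0.0368), calls that were lost without any 1 library of WT or E1-KO. The E3-KO call was also lost without E3-KO replicate 2 (-0.23, adjusted p = 0.178) and was kept under 13 of 23 alternatives. Atp5g1 and Atp5g3 passed in no knockout, so that Atp5g2 made up 55.1% and 51.4% of the summed FPKM of the 3 in WT and 36.6% to 48.2% in the knockouts. Atp5s, listed as Dmac2l in RefSeq and not a structural subunit, was low, at 3.38 and 4.66 FPKM (WT), 2.35 and 2.22 (E1-KO), 1.43 and 2.07 (E2-KO) and 2.11 and 2.17 (E3-KO). Its log2 fold changes of -0.60 (E1-KO, standard error 0.18, adjusted p = 0.0262), -0.87 (E2-KO, adjusted p = 0.00597) and -0.67 (E3-KO, adjusted p = 0.0142) were lost without WT replicate 2 in each knockout (adjusted p up to 0.195 over the left-out libraries).

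Called in the same direction in all 3 knockouts were 11 members (13.6% of those tested), 4 higher and 7 lower. Over all tested genes 6.56% were higher and 13% lower in all 3 (19.5% together), and 37 members (45.7%, against 38.3% of all tested genes) were called in none. Higher were Ndufb3, Uqcrb, Cox6c and Atp5j. Lower were Ndufa7, Sdhc, Cox6a1, Cox6b2, Cox7a2l, Cox7b and Atp5s. The count was 19 (6 higher, 13 lower) with quantile normalization, 17 (4 higher, 13 lower) with a correction for transcript length and GC content, 15 (10 higher, 5 lower) with median-ratio scaling and 4 without WT replicate 2. It was 7 without WT replicate 1 and 5 without either E1-KO library. Calls of Cox7a2l, Cox6b2, Ndufa7 and Atp5j in all 3 knockouts held under every alternative tried.

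**Figure D4:**
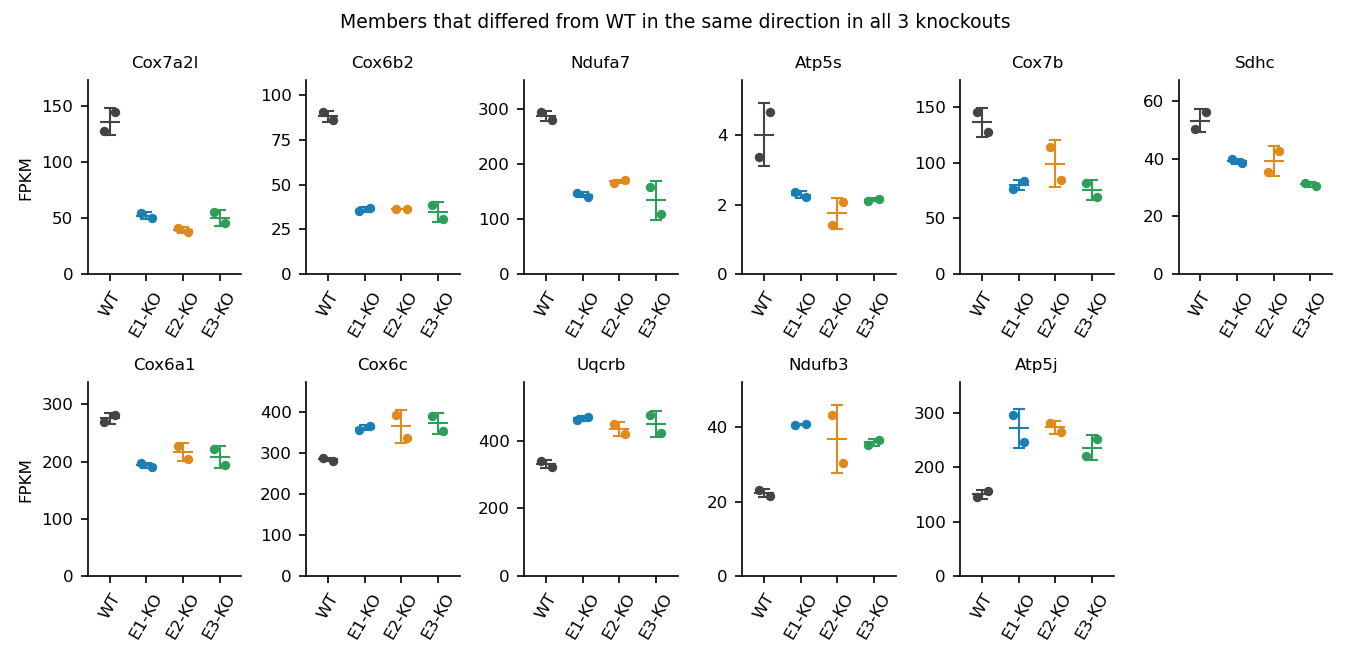
FPKM (y axis, from 0) of the 11 members that differed from WT in the same direction in all 3 knockouts, by group (x axis), with each sample as a point and the mean and SD of 2 samples. In each panel the 6 knockout samples lie on one side of both WT samples, by the widest relative gap in Cox7a2l and Cox6b2.

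Promoter sequence is shown for 4 of these 11, to let the upstream regions of members that moved down and up be compared. RefSeq promoters (GRCm38.p6, 250 bases before to 50 after a start) were matched for 69 of the 85 members, 74 promoters in all. Shown are only bases before the start that no exon of a protein-coding gene covers. The reference strain differs from that of the cells. The runs are read 5′ to 3′ on the gene's strand, and capitals mark matches to the motif GCGCATGC, the core site of the factor NRF1, on either strand. The window of Cox7a2l lies inside the span annotated for the gene in GENCODE, whose longest transcript starts further upstream. Cox7a2l (chr17:83514334-83514583, minus strand), Cox6b2 (chr7:4753095-4753225, minus strand) and Cox6a1 (chr5:115348982-115349208, minus strand) fell, and Atp5j (chr16:84835626-84835875, minus strand) rose.
Cox7a2l: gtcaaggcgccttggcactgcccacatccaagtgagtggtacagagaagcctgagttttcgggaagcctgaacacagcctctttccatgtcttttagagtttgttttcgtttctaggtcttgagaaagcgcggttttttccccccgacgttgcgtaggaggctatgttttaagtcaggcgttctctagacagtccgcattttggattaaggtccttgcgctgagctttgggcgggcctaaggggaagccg
Cox6b2: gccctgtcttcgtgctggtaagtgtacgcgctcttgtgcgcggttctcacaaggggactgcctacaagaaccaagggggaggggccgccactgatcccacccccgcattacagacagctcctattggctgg
Cox6a1: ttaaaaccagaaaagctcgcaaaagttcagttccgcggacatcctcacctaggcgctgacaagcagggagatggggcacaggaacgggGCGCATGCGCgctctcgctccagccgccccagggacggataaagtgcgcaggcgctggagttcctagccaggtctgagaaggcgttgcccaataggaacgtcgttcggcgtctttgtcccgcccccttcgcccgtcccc
Atp5j: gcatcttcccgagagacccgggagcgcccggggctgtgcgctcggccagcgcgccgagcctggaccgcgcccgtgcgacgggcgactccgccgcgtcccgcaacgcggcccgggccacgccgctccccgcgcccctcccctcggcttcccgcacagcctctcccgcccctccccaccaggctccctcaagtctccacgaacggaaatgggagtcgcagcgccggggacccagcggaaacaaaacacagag
The window of Ndufa7 is not shown, as 96.4% of it lies in exons of protein-coding genes, mainly Rps28. That of Cox7b, which no such exon covers, is not shown either.

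The NRF1 motif was searched because NRF1 is known to bind upstream of many respiratory chain genes. It was found on either strand in 10 of the 74 member promoters (13.5%) and in 2.71% of all 32851 promoters of the same length. The YY1 motif AAGATGGCG was in 7 (9.46%) against 1.4%, the ETS motif CCGGAAGT in 5 (6.76%) against 3.89%, the KLF motif GGGCGTGG in 7 (9.46%) against 5.33% and the SOX motif CATTGT in 10 (13.5%) against 12.6%. These windows are of 300 bases, the motifs do not contain each other, and no comparison was tested. Among the members called in all 3, a promoter was matched for 6 of the 7 lower and 2 of the 4 higher. In these the NRF1 motif stood in the window of Cox6a1, as 2 overlapping matches that begin 160 and 162 bases before the start. The YY1 motif was at the other annotated start of Atp5j, which is not shown, and the KLF motif in the window of Atp5s. None of the 5 motifs was found in the windows of Cox7a2l, Cox6b2, Cox7b, Ndufa7 or Ndufb3, which says only that these letters are not there.

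Of the 4 members on chromosome 6, 3 were called lower in E3-KO than in WT: Ndufa4, Ndufa9 and Ndufb2. Ndufa5 was not. Over the whole chromosome 375 of 536 tested genes were called (70%), 347 of them lower, with a median log2 fold change of -0.62. Ndufa4, placed with complex I by symbol but known as a subunit of complex IV, was at 262 and 241 FPKM (WT), 268 and 263 (E1-KO), 293 and 267 (E2-KO) and 171 and 150.3 (E3-KO). The E3-KO samples lay below the other 6, and all samples of E1-KO and E2-KO lay above both WT samples, though neither knockout passed the test. The change of E3-KO against WT was -0.64 (standard error 0.11, adjusted p = 0.00189). Ndufa9, which helps stabilise the arm junction of complex I, was at 57.7 and 61.3 FPKM (WT), 54.9 and 57.1 (E1-KO), 64.8 and 61.7 (E2-KO) and 40.0 and 35.4 (E3-KO), and changed by -0.65 (standard error 0.10, adjusted p = 0.00111) in E3-KO. Ndufb2, a membrane arm subunit, was at 46.5 and 51.2 FPKM (WT), 36.4 and 33.6 (E1-KO), 46.4 and 37.6 (E2-KO) and 28.3 and 19.8 (E3-KO), and changed by -1.01 (standard error 0.17, adjusted p = 0.0016) in E3-KO; its samples of E1-KO lay below WT too (-0.47, adjusted p = 0.0522). Ndufa5, a subunit of the matrix arm, was at 83.8 and 98.4 FPKM (WT), 132 and 119 (E1-KO), 184 and 129.9 (E2-KO) and 111 and 83.3 (E3-KO), so that E3-KO overlapped with WT (0.08, adjusted p = 0.748) while E2-KO was higher (0.76, adjusted p = 0.0127). The E2-KO call was lost without E2-KO replicate 1 or WT replicate 1 (adjusted p up to 0.0904). Off chromosome 6, 25 of 77 members (32.5%) were called in E3-KO, 5 higher and 20 lower, with a median log2 fold change of -0.11. This share lay below the 44.7% of all tested genes. In a fit without chromosome 6, 4599 of 10733 genes were called, with a median of -0.13, and 5 members were higher and 19 lower. What the lower level of the whole chromosome gives to these 3 genes was not tested.

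**Figure D5:**
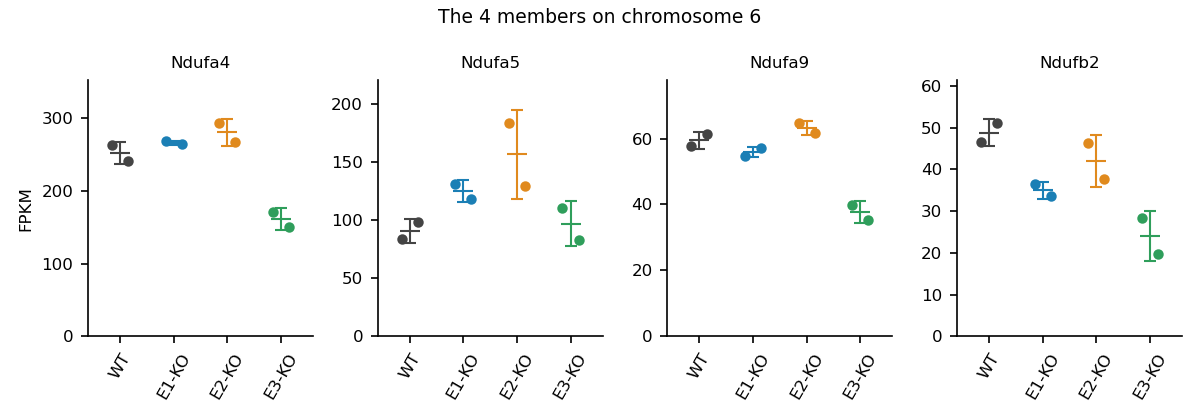
FPKM (y axis, from 0) of the 4 members on chromosome 6 by group (x axis), with each sample as a point and the mean and SD of 2 samples. E3-KO lies lowest for Ndufa4, Ndufa9 and Ndufb2, and for Ndufa5 it overlaps with WT.

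Differences among the knockouts themselves were tested next. Between E2-KO and E1-KO 1 of 81 was called (1.23%), against 0.834% of all tested genes (0.488% higher, 0.346% lower). Between E3-KO and E1-KO 6 were called (7.41%; 1 higher, 5 lower), against 25.8% of all tested genes (9.42% higher, 16.4% lower). E3-KO and E2-KO also differed in 6 members (7.41%), all lower in E3-KO, against 15.6% of all tested genes (5.48% higher, 10.1% lower). Of the 6 calls, 3 against E1-KO and 4 against E2-KO were members on chromosome 6, where 66.8% and 60.1% of all tested genes were called. Ndufv3, a subunit near the NADH site, was at 76.6 and 69.2 FPKM (WT), 108 and 102 (E1-KO), 78.6 and 101 (E2-KO) and 67.1 and 61.8 (E3-KO): it was above WT in E1-KO and lowest in E3-KO, which differed from E1-KO by -0.70 (standard error 0.13, adjusted p = 0.00481). Cox7b2 was the member higher in E3-KO than in E1-KO (1.27, standard error 0.19, adjusted p = 0.00205). Ndufs3 was higher in E2-KO than in E1-KO (0.52, standard error 0.09, adjusted p = 0.0443), a call kept under 10 of 23 alternatives.

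The replicates of E2-KO and E3-KO differed in these genes. Replicate 1 was above replicate 2 in 67 of the 81 tested members in E2-KO, with a median difference of 0.22 on the log2 scale, and in 68 of 81 in E3-KO, with a median of 0.23. In E1-KO it was above in 37 and in WT in 31, with medians of -0.01 and -0.04. Over all tested genes the medians were 0.02 and 0.05 for these knockouts. The members have short transcripts, and among the 641 other tested genes with transcripts of at most 768 bases, the median length of the tested members, the median difference was 0.16 in E2-KO and 0.19 in E3-KO. A difference between replicates in the same direction was thus also seen in other short genes. In that count length was not separated from level or GC content. The part of this difference in the comparisons with WT was not tested beyond the correction for length and GC content. That correction gave 11 higher and 17 lower members in E2-KO, and 9 higher and 24 lower in E3-KO.

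Genes around the respiratory chain were counted by list, with medians of the log2 fold change in the order E1-KO, E2-KO, E3-KO (-0.06, -0.08 and -0.15 over all tested genes). Beside these counts, 15% of all tested genes were higher and 23% lower (E1-KO), 14.2% and 22% (E2-KO) and 13.9% and 30.8% (E3-KO). Of 45 tested assembly factors, 7 were higher and 7 lower (E1-KO), 10 and 4 (E2-KO) and 6 and 11 (E3-KO), with medians of -0.02, 0.12 and -0.14. Cox20, which guides a core subunit into complex IV, was at 14.2 and 11.7 FPKM (WT), 62.1 and 43.7 (E1-KO), 39.0 and 57.0 (E2-KO) and 39.3 and 45.0 (E3-KO), with log2 fold changes of 1.93 (adjusted p = 0.000321), 1.79 (adjusted p = 0.000485) and 1.63 (adjusted p = 0.000468). Ndufaf2, a late chaperone of complex I, was at 11.7 and 13.7 FPKM (WT), 46.9 and 37.6 (E1-KO), 49.1 and 30.7 (E2-KO) and 32.0 and 53.4 (E3-KO), with log2 fold changes of 1.66, 1.55 and 1.64. Both were higher in every knockout sample than in WT, without overlap. Of 75 mitochondrial ribosome genes, whose products translate the subunits encoded in mitochondria, 25 were higher and 9 lower (E1-KO), 31 and 5 (E2-KO) and 21 and 12 (E3-KO), with medians of 0.14, 0.31 and 0.02. The largest rise in E1-KO was that of Mrpl46 (1.29, and 1.23 and 1.11 for E2-KO and E3-KO). The largest fall was that of Mrps24, at 45.0 and 49.4 FPKM (WT), 23.9 and 21.9 (E1-KO), 28.2 and 27.0 (E2-KO) and 25.9 and 19.1 (E3-KO).

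Of 21 genes for electron carriers and ATP exchange, 4 were higher and 8 lower (E1-KO), 5 and 7 (E2-KO) and 5 and 8 (E3-KO). The medians were -0.35, -0.15 and -0.14. In all 3 knockouts 1 of the 21 was higher and 7 were lower, against 6.56% and 13% of all tested genes. Such counts were 5 higher and 2 lower for the 45 assembly factors and 17 and 5 for the 75 mitochondrial ribosome genes. They were 2 and 3 for 16 citric acid cycle genes, and 0 and 0 for 10 regulators of mitochondrial genes. Slc25a4, the ADP/ATP carrier typical of heart and muscle, was at 175 and 181 FPKM (WT), 83.4 and 78.7 (E1-KO), 109.7 and 102 (E2-KO) and 85.6 and 64.4 (E3-KO), with log2 fold changes of -1.13 (adjusted p = 0.000462), -0.74 (adjusted p = 0.00323) and -1.25 (adjusted p = 0.000194). Slc25a3, the phosphate carrier, was at 239 and 263 FPKM (WT), 137 and 142 (E1-KO), 172 and 161 (E2-KO) and 164 and 129.6 (E3-KO). Coq2, an enzyme of ubiquinone synthesis, was at 18.5 and 18.6 FPKM (WT), 10.8 and 9.46 (E1-KO), 8.85 and 9.87 (E2-KO) and 7.73 and 5.92 (E3-KO). Cytochrome c, encoded by Cycs, went the other way in E1-KO and E2-KO, at 47.9 and 47.9 FPKM (WT), 86.3 and 85.0 (E1-KO), 97.7 and 82.9 (E2-KO) and 47.2 and 55.7 (E3-KO), and overlapped with WT in E3-KO. Among 16 citric acid cycle genes, 3 were higher and 5 lower (E1-KO), 2 and 3 (E2-KO) and 2 and 9 (E3-KO), with medians of -0.16, -0.15 and -0.31. Idh3g, a subunit of isocitrate dehydrogenase, was at 154 and 149.8 FPKM (WT), 100.0 and 101 (E1-KO), 94.8 and 121 (E2-KO) and 87.5 and 79.9 (E3-KO), lower in all knockout samples. Of 10 tested regulators of mitochondrial genes, 5 were higher in E1-KO, 2 were higher in E2-KO, and E3-KO had 1 higher and 2 lower, with medians of 0.37, 0.22 and 0.07. Tfam, which packs and transcribes mitochondrial DNA, was at 30.7 and 27.0 FPKM (WT), 52.7 and 46.3 (E1-KO), 40.5 and 35.6 (E2-KO) and 26.5 and 28.3 (E3-KO). Ppargc1a was at or near 0 in all samples, and no gene of the mitochondrial genome was analysed here.

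Some members resemble other annotated sequences. An annotated copy of at least 95% identity over at least 50% of the transcript exists for 16 of the 85 members, among them Ndufs3, Uqcrb, Atp5g2, Atp5h, Atp5k and Atp5l, and for 2 of the 16 a copy is listed in the files. How reads were assigned among such copies was not tested. Exons of 29 members overlap with another annotated gene, on the same strand in 5, and for 19 the other gene is listed in the files.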

How the data were processed

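RNA of 8 samples, 2 in each of WT, E1-KO, E2-KO and E3-KO, was sequenced as total RNA libraries in paired ends, per the labels' protocols. The authors deposited 1 table per sample with 1 value per gene identifier, taken here as FPKM from the range and sums of the values. The submitters' processing notes name Trimmomatic 0.36, TopHat2 2.0.12, Cufflinks 2.2.1 and the build mm9, without the role of each. A strand setting is not given in the sources used here. Each table held 18774 rows for 17812 identifiers, of which 660 were repeated. For 573 of these, 1 row stood where the order of the tables puts the gene and was kept, and 87 with no such single row were left out. Symbols were matched for 17262 identifiers through GENCODE M21.

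From these values, log2(FPKM + 1) was fitted with limma 3.58.1 (limma-trend, R 4.3.3) on the group in all 8 samples, which leaves 4 residual degrees of freedom, for the 11269 genes whose mean reached 1 FPKM. Two-sided p-values were adjusted by Benjamini-Hochberg over these genes and called under 0.05. Replicate numbers were not taken as pairs: over all genes, samples with the same number deviated from their group means with correlations of -0.0418 to 0.0889. Over the members alone these correlations ran from -0.379 (E1-KO and E3-KO) to 0.0526 (E2-KO and E3-KO). The members and gene lists were chosen with earlier results of these data known. Every member could be named with its values. Test values were given for up to 3 called members per complex and knockout with the largest change, for members called in all 3 knockouts or between knockouts, on chromosome 6, or with tissue isoforms, and for up to 4 genes of each pathway list and knockout. Some core subunits, Cox5a and the regulators were named beyond this as values or calls. Copies were sought with BLAST+ 2.17.0+, and scripts ran in Python 3.11.15 with figures by matplotlib 3.10.9. The test was also run on simulated data with independent noise and few changed genes. These data differ in both respects, so that run says nothing about the counts here. Alternatives, 23 in number, covered scaling, filter, pseudocount, threshold, model, repeated rows, length and GC content, chromosome 6 and each library left out.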

Additional observations from a re-analysis of the deposited data

Results flagged for a closer look

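Changes that differed between knockouts, by a test of the knockouts against each other (limma-trend, Benjamini-Hochberg over all tested genes), were found 13 times among the members. The cause was tested for none of them.

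Between E2-KO and E1-KO, Ndufs3 differed by 0.52 on the log2 scale (adjusted p = 0.0443), a call lost without any one of the E1-KO, E2-KO or WT libraries (adjusted p up to 0.271). Between E3-KO and E1-KO, on chromosome 6, the difference was -0.72 for Ndufa4 (adjusted p = 0.00198), -0.56 for Ndufa9 (adjusted p = 0.00389) and -0.54 for Ndufb2 (adjusted p = 0.0409). Off chromosome 6 it was -0.70 for Ndufv3 (adjusted p = 0.00481), 1.27 for Cox7b2 (adjusted p = 0.00205) and -0.41 for Atp5h (adjusted p = 0.0364). Those of Ndufb2 and Atp5h were lost without either library of E1-KO or WT, and without E3-KO replicate 2 (adjusted p up to 0.191 and 0.221).

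Between E3-KO and E2-KO, all 4 members on chromosome 6 were lower in E3-KO, with differences of -0.80 for Ndufa4 (adjusted p = 0.00252), -0.68 for Ndufa5 (adjusted p = 0.0394), -0.73 for Ndufa9 (adjusted p = 0.00223) and -0.79 for Ndufb2 (adjusted p = 0.0149). Ndufs3 differed by -0.43 (adjusted p = 0.0152) and Ndufv3 by -0.46 (adjusted p = 0.0415). The Ndufa5 call was lost when any of 6 libraries was left out (adjusted p up to 0.185), that of Ndufv3 in 7 (up to 0.148), that of Ndufb2 in 2, E2-KO replicate 1 and E3-KO replicate 2 (up to 0.0767), and that of Ndufs3 without E2-KO replicate 1 (0.0555). The 2 comparisons with E3-KO share its samples.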

How the results depend on the processing

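The number of members called depended on which libraries entered. With single libraries left out it ran from 11 to 38 in E1-KO (29 with all), 5 to 29 in E2-KO (24), 13 to 36 in E3-KO (28), 0 to 4 for E2-KO against E1-KO (1), 4 to 10 for E3-KO against E1-KO (6), 3 to 17 for E3-KO against E2-KO (6) and 4 to 13 for all 3 knockouts (11). Fitting only the 4 samples of a comparison gave 52 in E1-KO and 2 for E3-KO against E2-KO. At an adjusted p under 0.01 the counts were 16, 6 and 15 against WT, 2 for E3-KO against E2-KO and 5 in all 3 knockouts, and a log2 change of at least 0.5 left 12 in E2-KO and 6 in all 3. Members called in all 3 numbered 19 with quantile normalization, 17 with the correction for length and GC content and 7 with all genes above 0. Without chromosome 6 E3-KO differed from E1-KO in 3 members and from E2-KO in 2. Between E2-KO and E1-KO limma called 0 with the replicate block, the 4 samples alone, scaling without the 50 highest genes, no trend, all genes above 0, the stricter p or the length correction, where 16 to 21 members had an unadjusted p under 0.05. The matching share over all genes was not counted, so this range is no result about the members.

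The replicate block, which takes equal replicate numbers as pairs, gave 30, 22 and 28 members against WT. By the check of deviations over all genes, the numbers do not pair the samples. Over the members the correlations were -0.379 to 0.0526.

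Summed levels as a ratio to WT moved with scaling. Quantile normalization gave 0.915 for complex I, 1.00 for III, 0.778 for IV and 0.979 for V in E1-KO, and 1.04 for III, 0.804 for IV and 1.02 for V in E2-KO. Median-ratio scaling gave 1.01 for I, 1.15 for III, 0.907 for IV and 1.07 for V in E1-KO, 1.25 for III and 1.19 for V in E2-KO, and 0.777 for II, 1.23 for III and 1.17 for V in E3-KO. Scaling without the 50 highest genes gave 0.955 for I in E1-KO.

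Of 90 gene values given with a test, 69 were called, and 29 of these held under every alternative. Signs reversed for uncalled values alone: Cox6b1 in E2-KO (-0.22 with quantile normalization, -0.0012 without the 50 highest genes, -0.25 with the length correction, -0.12 to 0.22 with single libraries left out, lowest without E2-KO replicate 1), Cox7a1 in E3-KO (0.085 with quantile normalization, 0.12 with median-ratio scaling, 0.041 without the 50 highest genes, 0.052 with rows summed, 0.022 without E3-KO replicate 1, 0.072 without WT replicate 2, -0.11 without WT replicate 1), Ndufa4 in E1-KO (-0.059 with quantile normalization, -0.0032 with the length correction) and E2-KO (-0.058 and -0.0025), Ndufa4l2 in E1-KO (-0.50 without E1-KO replicate 1, 0.14 without E1-KO replicate 2) and Ndufa5 in E3-KO (-0.12 without E3-KO replicate 1, 0.29 without E3-KO replicate 2, -0.033 without WT replicate 1). The cause was not tested. With 2 samples a group and unknown absolute depth, smaller differences could not be resolved.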
